A study of Sparus aurata with 9 samples.

Results

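The miRNA response to either of 2 anabolic stimuli was compared with nutrient restriction in primary myoblasts from fast muscle of gilthead sea bream (Sparus aurata). All 9 small RNA libraries of the series entered the comparison: 3 of AA cells and 3 of IGF1 cells, pooled as 1 stimulated group of 6, against 3 of CTR cells. CTR cells were kept for 36 h without amino acids, AA cells for 12 h without them and then 24 h with them, and IGF1 cells had the same 12 h and then 24 h with insulin-like growth factor 1 (Igf-1). Per the study's methods, the CTR medium was a salt solution with vitamins and glucose, the AA medium was DMEM, and the IGF1 medium held no amino acids but did hold Igf-1 and its albumin carrier, so no single component separates the stimulated group from CTR. By the study, the restriction began on day 8 of culture and the cells came from 3 independent cell cultures. The labels do not tie a library to a culture, and p-values therefore reflect only how far these libraries spread, which may be partly technical.

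The table lists 862 entries, each a mature sequence with normalized reads per library: 567 under a miRBase name and 295 predicted candidates whose names start with PC. Prefixes give the fish whose precursor matched (oni for Nile tilapia, abu for Burton's mouthbrooder, dre for zebrafish, ssa for Atlantic salmon). Tests covered the 594 entries, 481 named and 113 predicted, that reached 10 normalized reads in 3 or more libraries.

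A miRNA is cut from a hairpin whose 2 arms, 5p and 3p, pair with each other. One arm, the guide, is usually kept in Argonaute and finds target mRNAs through its seed (bases 2 to 8), while the other, the passenger, is mostly degraded. In skeletal muscle the best known miRNAs are the myomiRs miR-1, miR-133, miR-206 and miR-499: miR-1 and miR-206 promote differentiation of mammalian myoblasts, and miR-499 lies within a myosin heavy chain gene. Amino acids and Igf-1 both feed into the mTOR pathway, which drives protein synthesis and muscle growth.

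Deposited totals were close to each other, at 8367582 to 9019641 normalized reads per library. From the spacing of low values, 79.3% to 83.1% of which were whole multiples of 1 read within 0.02 reads, the depth was inferred as 7045311 to 8010697 reads in CTR and 7241680 to 11214776 in the stimulated libraries, with all 3 AA libraries deeper than every CTR library. At these depths 3 reads correspond to 2.32 to 3.62 normalized reads, a floor that covers counting error only. CTR replicate 1 stood apart most, with a root mean square deviation from the group mean of 0.74 on the log2 scale. The other CTR libraries stood at 0.57 and 0.61 and the stimulated libraries at 0.35 to 0.52. The mean SD per entry on that scale was 0.54 in CTR, 0.34 in AA and 0.38 in IGF1. The tests take 1 spread for all groups, so p-values may be too small where CTR spreads more. Guide arms that mark other cells were also present. The fibroblast and smooth muscle list summed to 310534 to 323474 normalized reads in CTR and 280516 to 345330 in stimulated libraries, and the endothelial miR-126 list to 85970 to 108520 and 92943 to 103065. Blood markers summed to 1519 to 2452 and 1586 to 2742, and neural markers to 261 to 338 and 334 to 410. The myomiR guide arms that define the cell type summed to 498012 to 697074 normalized reads in CTR and 493552 to 850728 in stimulated libraries.

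The sequences below are those on which the comparison turned, as deposited, 5′ to 3′ with the seed in capitals. The first set holds passenger arms with higher levels in every stimulated library (miR-206-5p and miR-499b-3p in 5 of 6), and shows that the myomiR passengers do not share a seed with each other, while 2 passengers of the miR-19 family do.
miR-1-5p: aCATACTTctttatgtacccat
miR-206-5p: aCATGCTTccttatatccccata
miR-133a-2-5p: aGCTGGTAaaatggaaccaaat
miR-133b-5p: gCTGGTCAaacggaaccaagtc
miR-499b-3p: aACATCACtttaagtctgtgct
mir-217-p3: cAACAGTAcctgatgcattgcc
mir-19b-1-p5: aGTTTTGCtggtttgcattcagc
miR-19c-4-5p: aGTTTTGCtggtttgctttcagc
miR-19a-5p: gCTAGTTTtgcatagttgcact

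The guide arms of the same muscle hairpins are shown for comparison, since they carry the known function. miR-1 and miR-206 share the seed GGAATGT. The longest stretch of miR-1-5p that is the reverse complement of a stretch of miR-1 is 13 bases, and that of miR-206-5p and miR-206 is 8 bases, as the stem of a hairpin gives.
miR-1: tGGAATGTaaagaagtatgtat
miR-206: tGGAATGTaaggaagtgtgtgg
miR-133a: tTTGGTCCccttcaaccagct
miR-499: tTAAGACTtgcagtgatgttta

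Other sequences with higher levels included a fish miRNA, miR-7133, as both of its strands, whose sequences are reverse complements over 10 bases.
miR-7133: gATGTTGAgtatcaaactgta
miR-7133-3p: tAGTTTGAtacacagcacaata
miR-7147: tGTACCATgctggtagccagt
miR-338-3p: tCCAGCATcagtgattttgttgc
miR-736: gTAAGACGaacaaaaagtttgt

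The last set was lower in stimulated libraries. The 2 miR-203a entries share 21 bases and differ in where the 5′ end starts, which moves the seed by 1 base, and 4 passengers belong to the miR-29 family.
miR-122: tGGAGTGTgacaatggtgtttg
miR-203a: gTGAAATGtttaggaccacttg
miR-203a-3p: tGAAATGTttaggaccacttga
mir-29a-1-p5: aCCGTTTTcctctggtgttcaga
mir-29b-1-p5: cTGGTTTCacgtggtggtttaga
miR-29b-1-5p: aCTGATTTcttctggtgcttaga
mir-29d-p5: aCTGGTTTcagatggtgtcttaga
miR-92a-3p: tATTGCACttgtcccggcctgca
miR-31: aGGCAAGAtgttggcatagctgt

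No miRNA passed the test of the pooled stimulated group against CTR. Under limma on log2(normalized reads + 1) with Benjamini-Hochberg adjustment over 594 entries and a threshold of 0.05, 0 entries were higher (0%) and 0 lower (0%), and the smallest adjusted p was 0.0566, for mir-217-p3 and miR-1-5p. Before adjustment, 56 entries had p under 0.05 with higher levels (9.43%) and 38 with lower levels (6.4%), together 94 against 29.7 that 5% of the tests would give. Without CTR replicate 1 the pooled model called 8 entries higher and 1 lower, and without IGF1 replicate 3 it called 4 and 4. Over all entries 340 had a fold change above 0 and 254 below, with a median log2 fold change of 0.06. That median was 0.01 without CTR replicate 1. It was -0.02 after quantile normalization, which gives every library the same distribution and so cannot show a direction. No direction for the table as a whole was read from these medians. A model with 3 groups, which tests the mean of AA and IGF1 against CTR and leaves the difference between both stimuli out of the residual spread, called 9 entries higher (1.52%) and 4 lower (0.673%). The fold changes of the 2 models are the same, and only the spread against which they are judged differs.

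The 9 entries higher in the model with 3 groups were miR-1-5p, miR-133a-2-5p, miR-133b-5p, miR-206-5p, mir-217-p3, miR-181b-3p, miR-7147 and both strands of miR-7133. The 4 lower were miR-203a, miR-122, mir-29a-1-p5 and mir-29d-p5. Because the contrast takes the mean of both stimuli, AA alone can bring a call. In the same limma model none of these entries passed for IGF1 against CTR, with an adjusted p of at least 0.114. That does not show that Igf-1 had no effect. Of these 13, miR-1-5p, miR-133a-2-5p and mir-217-p3 were called by this model under all 21 settings run, processing choices and left-out libraries included, with adjusted p of at most 0.0338. The other 10 were each called under 8 to 16 of the 21. With 1 library left out the model made 3 to 44 calls. It made 44 when CTR replicate 1 was dropped, against 4 and 7 for the other CTR libraries, replicates 2 and 3. Dropping an AA library gave 7, 3 and 5 calls for replicates 1, 2 and 3, and dropping an IGF1 library gave 8, 3 and 10. Weights per library gave 83 calls, no filter on low values 7, quantile normalization 6 and no intensity trend 3. The entries miR-206-5p, mir-29d-p5, miR-181b-3p and the miR-7133 strand without an arm in its name were singled out after their values were seen.

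**Figure D1:**
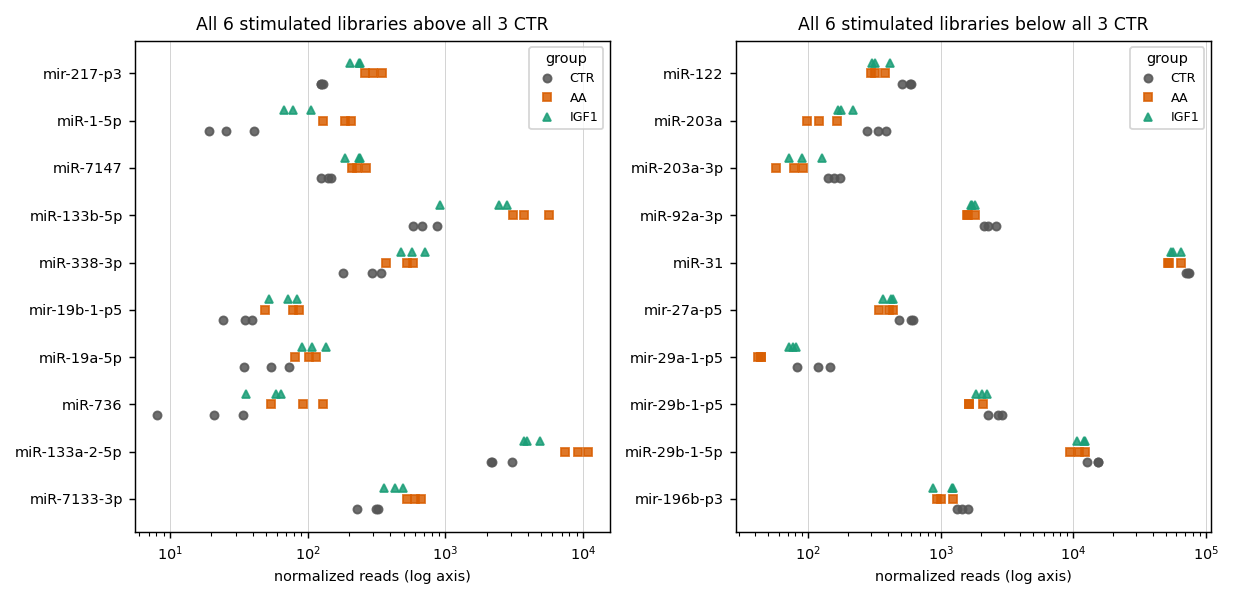
Normalized reads (log axis), 1 point per library, of entries under a miRBase name, 1 per sequence, with predicted candidates left out. On the left are the 10 with the smallest p whose 6 stimulated libraries all lay above the 3 CTR libraries. On the right are the 10 whose 6 all lay below. CTR values of mir-217-p3 lay at 125 to 129 and stimulated values at 204 to 346, while for miR-133b-5p 1 IGF1 library, at 914, lay just above the highest CTR library, at 874.

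The passenger arms of the myomiRs had the highest median fold change of the family lists split by arm, except without CTR replicate 1, where theirs was 1.59 and that of the miR-21 passengers 1.66. All 5 entries of this list that were tested were above CTR, with a median log2 fold change of 1.34 against 0.06 over all 594 entries. At an unadjusted p under 0.05, 5 of 5 were higher, against 9.43% of all entries, and the model with 3 groups called 4 of 5 higher, against 1.52% of all. This and the other lists were chosen with earlier results of these data known, so such shares describe the entries and are not a test. The 5 entries are 5 sequences, and whether they vary independently of each other was not tested. miR-133a and miR-133b share 1 guide sequence here, so ratios of passenger to guide at both use the same guide reads. The summed level of the myomiR passengers was 4168 to 4760 normalized reads in CTR, 14014 to 20617 in AA and 6626 to 9069 in IGF1, so that the 6 stimulated libraries lay above the 3 CTR libraries.

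miR-1-5p, the passenger of the main differentiation miRNA of muscle, measured 19.3, 25.4 and 41.0 normalized reads in CTR replicates 1 to 3. It measured 130, 188 and 209 in AA and 67.6, 79.0 and 106 in IGF1. Every stimulated library was above every CTR library, and every AA library above every IGF1 library. The log2 fold change of the pooled group was 2.09 ± 0.38 (SE, 6 against 3, adjusted p = 0.0566), and 0.00594 adjusted in the model with 3 groups. Side by side, on the same 3 CTR libraries, AA stood at 2.62 and IGF1 at 1.57.

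miR-133a-2-5p, a passenger arm of miR-133, measured 3056, 2180 and 2152 normalized reads in CTR, 7450, 9171 and 10939 in AA and 4907, 3749 and 3918 in IGF1. The 3 groups did not overlap, in the order CTR, IGF1, AA. Its log2 fold change was 1.34 ± 0.34 (SE, adjusted p = 0.0997) and passed with an adjusted p of 0.00594 in the model with 3 groups. AA was above IGF1 at this entry by 1.12 on the log2 scale (adjusted p = 0.031), so the pooled value averages 1.90 for AA and 0.78 for IGF1.

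miR-133b-5p measured 683, 585 and 874 normalized reads in CTR, 3759, 3086 and 5632 in AA and 2805, 2470 and 914 in IGF1. IGF1 replicate 3 was close to CTR and the other 5 stimulated libraries were well above it. The log2 fold change was 1.95 ± 0.44 (SE, adjusted p = 0.0997, and 0.0285 in the model with 3 groups).

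miR-206-5p measured 884, 1331 and 1128 normalized reads in CTR, 2432, 3198 and 3684 in AA and 1143, 1646 and 1568 in IGF1. The AA libraries were all higher than CTR, and 1 of the 3 IGF1 libraries lay within the CTR range. The log2 fold change was 0.93 ± 0.34 (SE, adjusted p = 0.243, and 0.0454 in the model with 3 groups). miR-499b-3p, the fifth passenger, ranged from 46.1 to 117 in CTR and 65.6 to 243 in stimulated libraries, and did not pass (1.16 on the log2 scale, adjusted p = 0.238).

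The guide arms of the same miRNAs differed less. Over 9 entries with 8 above and 1 below CTR, the median log2 fold change was 0.50, with 0 called in either model. An unadjusted p under 0.05 with higher levels was found at 2 of the 9, against 9.43% of all entries. These 2 are 1 sequence under the names miR-133a and miR-133b. The 9 entries are 8 sequences, forms of miR-1, miR-133, miR-206 and miR-499, and so not separate miRNAs. The highest, a miR-1 form at 0.63, held only 3.62 to 12.5 normalized reads. The median over these 9 entries was 0.65 for AA and 0.06 for IGF1. miR-133a, which promotes proliferation of mammalian myoblasts, measured 50288, 56034 and 60779 normalized reads in CTR, 77497, 96256 and 89458 in AA and 55429, 76549 and 83063 in IGF1. Of the 6 stimulated libraries 5 were above CTR (log2 fold change 0.50 ± 0.16, SE, adjusted p = 0.218, 95% interval 0.15 to 0.85).

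miR-1 measured 28884, 29022 and 30736 normalized reads in CTR, 52799, 63283 and 56657 in AA and 29569, 36107 and 27349 in IGF1. Its AA libraries were above all others, and its IGF1 libraries overlapped CTR. The pooled log2 fold change was 0.51 ± 0.26 (SE, adjusted p = 0.378), and AA differed from IGF1 by 0.90 (adjusted p = 0.0168). miR-206, the most abundant myomiR, overlapped between groups, at 414701 to 608549 in CTR and 405254 to 698837 in stimulated libraries, with a median of 545014 in the latter. Its log2 fold change was 0.10, with a 95% interval of -0.28 to 0.48. miR-499 lay at 1765 to 2946 in CTR and 2223 to 4796 in stimulated libraries (0.54, 95% interval -0.03 to 1.12).

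**Figure D2:**
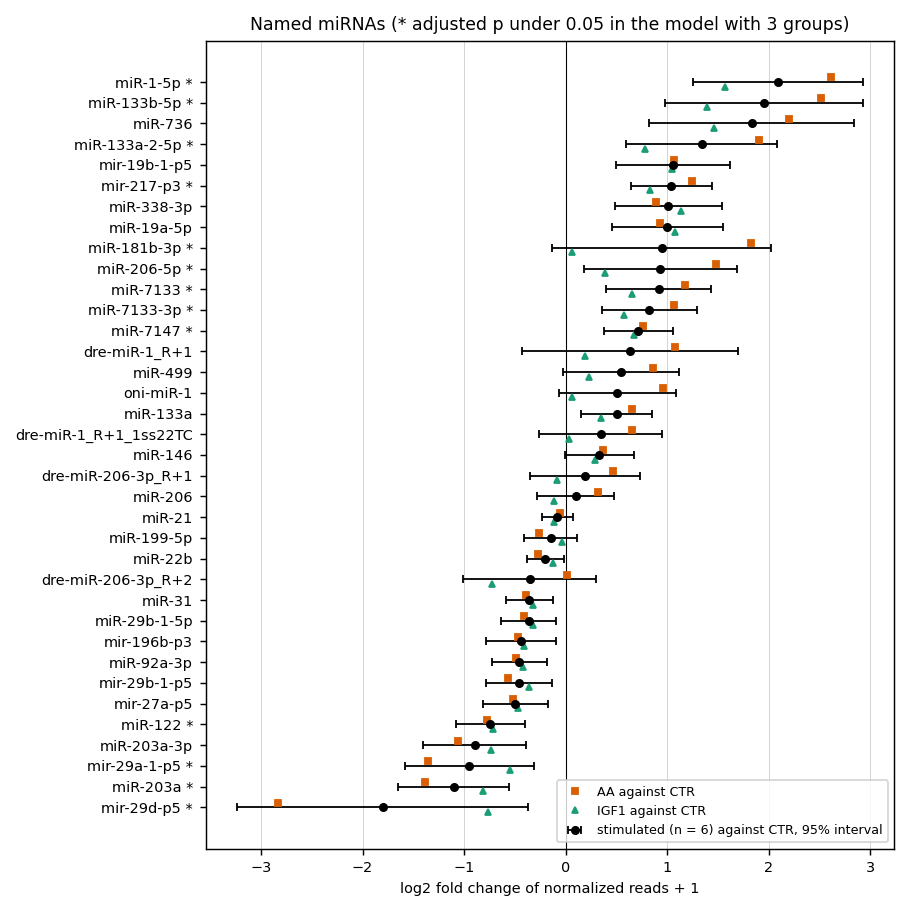
Log2 fold change (x axis, from log2(normalized reads + 1)) of each named entry for the pooled stimulated group against CTR, with its 95% interval, and for AA and IGF1 against the same CTR libraries. For miR-1-5p the pooled value is 2.09 with AA at 2.62 and IGF1 at 1.57, while for miR-181b-3p AA is at 1.82 and IGF1 at 0.07.

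Outside the muscle list, mir-217-p3 had the smallest p of all entries. miR-217 is known from the mammalian pancreas, and this arm is its passenger. It measured 129, 125 and 125 normalized reads in CTR, 262, 346 and 301 in AA and 239, 237 and 204 in IGF1. The CTR libraries were within 5 normalized reads of each other and every stimulated library was above them. The log2 fold change was 1.04 ± 0.18 (SE, adjusted p = 0.0566, and 0.00614 in the model with 3 groups).

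The passengers mir-19b-1-p5, miR-19a-5p and miR-19c-4-5p also lay above CTR in all 6 stimulated libraries. The guides of the miR-19 family come from clusters such as miR-17-92, known for promoting proliferation. mir-19b-1-p5 measured 39.9, 24.2 and 35.4 normalized reads in CTR and, in the stimulated libraries, 48.9 at the lowest, 75.1 at the median and 86.5 at the highest (log2 fold change 1.06 ± 0.26, SE, adjusted p = 0.0997). miR-19a-5p measured 54.3, 34.6 and 73.1 in CTR and 81.3, 105 and 135 at the lowest, median and highest (1.00 ± 0.25, adjusted p = 0.0997). Over the miR-18 and miR-19 passengers, 5 of 7 entries were higher, with a median of 0.64, and 3 of 7 lay above CTR without overlap, against 3.54% of all entries. The passenger of miR-19d overlapped, at 15.7 to 57.6 in CTR and 18.4 to 87.4 in stimulated libraries. The guides of this list had a median of 0.22, with 6 of 8 entries higher, and of 0.41 without CTR replicate 1.

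Both strands of miR-7133 had similar levels and similar fold changes. The strand without an arm in its name measured 366, 213 and 243 normalized reads in CTR, 645, 606 and 562 in AA and 518, 348 and 413 in IGF1. miR-7133-3p measured 324, 227 and 315 in CTR, 603, 671 and 532 in AA and 432, 358 and 496 in IGF1. For the first strand 1 IGF1 library, at 348, fell within the CTR range, and for the second no library overlapped. Log2 fold changes were 0.92 ± 0.24 and 0.82 ± 0.21 (SE, adjusted p = 0.0997 for both, and 0.0476 and 0.0454 in the model with 3 groups).

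miR-7147 measured 141, 126 and 148 normalized reads in CTR, 267, 230 and 210 in AA and 241, 237 and 188 in IGF1. It was one of the entries at which both stimuli gave nearly the same value, 0.76 for AA and 0.67 for IGF1, with a pooled log2 fold change of 0.71 ± 0.15 (SE, adjusted p = 0.0997, and 0.0476 in the model with 3 groups). miR-338-3p, which in mammals is expressed from an intron of a kinase gene, measured 292, 181 and 343 in CTR and 373, 550 and 717 at the lowest, median and highest of the stimulated libraries. Neither model called it, and its log2 fold change was 1.01 ± 0.24 (SE, adjusted p = 0.0997, and 0.0698 in the model with 3 groups). miR-736 was low throughout, at 8.07 to 33.8 in CTR and 36.0 to 130 in stimulated libraries, and its log2 fold change of 1.83 had a 95% interval of 0.82 to 2.84.

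miR-34, a p53 target in mammals, also lay above CTR in all 6 stimulated libraries. It measured 964 to 1723 normalized reads in CTR and 1788 to 2560 in stimulated libraries, with a log2 fold change of 0.70 (adjusted p = 0.116).

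Among entries with lower levels, miR-122 is the dominant miRNA of liver. It measured 601, 584 and 508 normalized reads in CTR, 296, 382 and 317 in AA and 302, 321 and 412 in IGF1. AA and IGF1 overlapped each other and both lay below CTR (log2 fold change -0.74 ± 0.15, SE, adjusted p = 0.0997, and 0.0454 in the model with 3 groups). The 2 stimuli gave -0.77 and -0.72. The guide arms of the hepatic and intestinal markers, miR-122 among them, summed to 1133 to 1253 in CTR and 901 to 1091 in stimulated libraries. Of the 5 entries tested in that list, 4 were above CTR and miR-122 was the only one below, and the part of other cells in its level was not tested.

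miR-203a, known from skin epithelium of mammals, measured 335, 389 and 276 normalized reads in CTR, 97.3, 122 and 166 in AA and 167, 177 and 219 in IGF1. Its shifted form miR-203a-3p, which carries the same reads under a second name, miR-203b-3p, measured 141, 172 and 157 in CTR and 57.2, 84.3 and 126 at the lowest, median and highest of the stimulated libraries. Both lay below CTR in 6 of 6 stimulated libraries. Log2 fold changes were -1.10 ± 0.25 and -0.90 ± 0.23 (SE, adjusted p = 0.0997 for both, and 0.029 and 0.0783 in the model with 3 groups). The epithelial guide list summed to 807 to 1031 in CTR and 621 to 786 in stimulated libraries, without overlap. Of its 9 entries tested, 5 were lower and 4 higher, with 3 below without overlap, all of them miR-203, against 3.2% of all entries. The part of epithelial cells was not tested.

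The arms of miR-29 that are passengers by their usual role leaned the other way from the myomiR passengers. The miR-29 guides repress collagen and other matrix genes in mammals. Of 6 passenger entries tested, 5 were lower and 1 higher, the median log2 fold change was -0.41, and 3 lay below CTR without overlap, against 3.2% of all entries. mir-29a-1-p5 measured 82.1, 145 and 119 normalized reads in CTR, 41.7, 44.1 and 44.3 in AA and 72.0, 81.0 and 76.5 in IGF1. The IGF1 libraries ended just under the lowest CTR library (log2 fold change -0.95 ± 0.29, SE, adjusted p = 0.183, and 0.0454 in the model with 3 groups). mir-29d-p5 measured 85.7, 157 and 105 in CTR, 6.95, 18.3 and 24.9 in AA and 58.8, 54.4 and 88.1 in IGF1, with 1 IGF1 library inside the CTR range (-1.80 ± 0.65, adjusted p = 0.238, and 0.0454 in the model with 3 groups).

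The 2 abundant entries of the miR-29b 5p arm differed by less. This arm counts as the passenger by its usual role, but its summed reads were 409% to 1763% of those of the 3p arm in these libraries. Over the whole miR-29 list, arms called passengers summed to 19687 to 24908 normalized reads in CTR and guides to 8161 to 16103. At miR-29a, in contrast, the passenger was at most 3.31% of the guide. miR-29b-1-5p, at 12779 to 15451 normalized reads in CTR and 9469 to 12275 in stimulated libraries, had a log2 fold change of -0.37, and mir-29b-1-p5, at 2261 to 2922 and 1629 to 2227, of -0.46. Neither passed in either model. The miR-29 guides were all on the other side, with 6 of 6 entries higher and a median of 0.27, and none at an unadjusted p under 0.05. Under the 3 rescalings the guide median lay between 0.17 and 0.28 and the passenger median between -0.57 and -0.41. Without CTR replicate 1 they were 0.56 and -0.65.

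A further 4 entries lay below CTR in all 6 stimulated libraries with small fold changes. miR-31, which in mouse satellite cells holds back Myf5 translation, measured 71234, 74065 and 74868 normalized reads in CTR and 51556, 55739 and 64935 at the lowest, median and highest of the stimulated libraries (log2 fold change -0.36 ± 0.11, SE, adjusted p = 0.168). A variant of miR-92a-3p measured 2128, 2624 and 2293 in CTR and 1569, 1713 and 1816 in the stimulated libraries (-0.46 ± 0.12, adjusted p = 0.113). mir-27a-p5 lay at 487 to 623 in CTR and 344 to 440 in stimulated libraries (-0.49, adjusted p = 0.168). mir-196b-p3, from a miRNA of the Hox clusters, lay at 1318 to 1613 and 882 to 1237 (-0.44, adjusted p = 0.238).

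The most abundant sequences had small fold changes. miR-21 made up 33.0% ± 1.92 of all reads (SD over 9 libraries) and measured 2804600 to 2892320 normalized reads in CTR and 2434250 to 2906110 in stimulated libraries (log2 fold change -0.08, 95% interval -0.24 to 0.07). miR-146, a feedback regulator of innate immune signalling in mammals, overlapped too (0.33, 95% interval -0.01 to 0.67). miR-22b, at 747528 to 801852 in CTR, was lower in all 6 stimulated libraries, at 614588 to 736772, with a log2 fold change of -0.20 (adjusted p = 0.292). miR-199-5p, from fibroblast-rich tissues, lay at 159987 to 180477 and 133630 to 190566 (-0.15, 95% interval -0.41 to 0.11).

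In 2 miRNAs the ratio of reads between arms differed from CTR. Reads of each arm were summed per miRNA and the log2 ratio of 5p to 3p, a value within each library, was tested over 75 miRNAs with at least 10 normalized reads per arm on average. Hairpins that give the same mature sequence are not told apart in these sums, and their part in the ratio was not tested. With 2 of 75 called (2.67%), the passenger rose against the guide at miR-1 and at miR-217. At miR-1 the passenger was 0.0663%, 0.0862% and 0.131% of the guide in CTR, 0.243%, 0.295% and 0.364% in AA and 0.226%, 0.215% and 0.382% in IGF1. All 6 stimulated libraries were above CTR and the 2 stimuli overlapped, with a change of 1.58 ± 0.26 on the log2 scale (SE, adjusted p = 0.00557).

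At miR-217 the passenger was 0.756%, 0.57% and 0.65% of the guide in CTR, 1.48%, 1.502% and 1.12% in AA and 1.42%, 1.35% and 0.915% in IGF1. The log2 ratio of 5p to 3p, where 5p is the guide, fell by 0.96 (SE 0.20, adjusted p = 0.0191). That call was lost when 1 library was left out in 5 of 9 cases, namely CTR replicates 2 and 3 (adjusted p = 0.144 and 0.105), AA replicates 1 and 2 (0.0558 and 0.0579) and IGF1 replicate 1 (0.0533). The call at miR-1 was kept under every alternative run, with an adjusted p between 0.000153 and 0.0375.

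**Figure D3:**
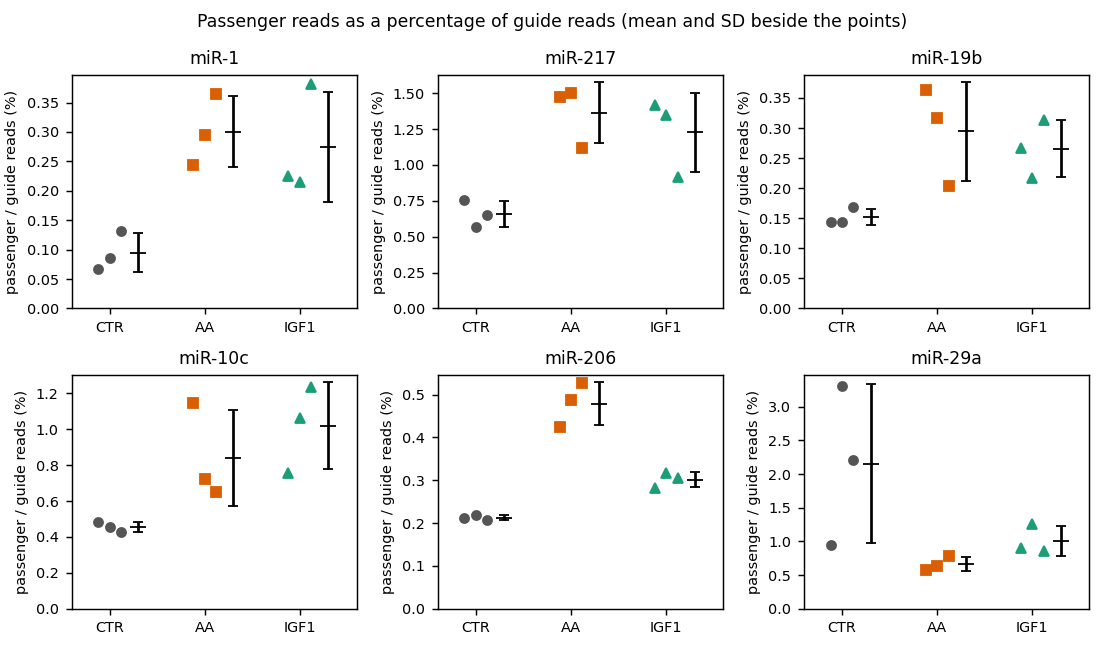
Passenger reads as a percentage of guide reads per library for the 6 miRNAs with the smallest p of the arm ratio, with the mean and SD of each group beside the points. At miR-1 CTR lies at 0.0663% to 0.131% and all stimulated libraries at 0.215% or above. At miR-29a the groups overlap, with CTR at 0.950% to 3.31% and stimulated libraries at 0.577% to 1.25%.

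The model with 3 groups called 5 arm ratios (6.67%), adding miR-19b, miR-10c and miR-206. At miR-206 the passenger was 0.213%, 0.218% and 0.208% of the guide in CTR, 0.425%, 0.486% and 0.526% in AA and 0.282%, 0.317% and 0.306% in IGF1, with no overlap between any of the 3 groups. At miR-19b it was 0.152% ± 0.0139 (SD, n = 3) in CTR and 0.28% ± 0.062 (n = 6) in stimulated libraries, and at miR-10c, whose gene lies in the Hox clusters, 0.456% ± 0.0275 and 0.93% ± 0.248. In the pooled model their adjusted p was 0.0702 for miR-206 and 0.0527 for both others.

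Over the 75 miRNAs the passenger was higher against its guide in 44 and lower in 31, with a median of 0.23 on the log2 scale, or 0.13 without CTR replicate 1. Roles are those usually given to the arms, and at 4 of the 75, miR-130b, miR-222a, miR-29b and miR-30e, the arm called passenger had more reads than the guide in all 9 libraries, and at 6 others in some. In 8 miRNAs (10.7%) all 6 stimulated libraries had a higher passenger to guide ratio than CTR, and in 1 (1.33%), miR-30e, a lower one. The arm called guide at miR-30e held only 0 to 27.5 normalized reads, with 0 in CTR replicate 2, and the other arm 127 to 291. Without CTR replicate 1 the count of calls was 26 (34.7%), of which 15 had a higher and 11 a lower passenger. At miR-29a the passenger was 0.950%, 3.31% and 2.21% of the guide in CTR and 0.577% to 1.25% in stimulated libraries, so CTR replicate 1 alone lay among the stimulated libraries (change -1.23 ± 0.37, SE, adjusted p = 0.0809).

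Separation of the groups was counted over all entries as well. All 6 stimulated libraries lay above all 3 CTR libraries at 21 entries (3.54%) and below at 19 (3.2%). Passenger arms of the family and cell marker lists held 11 of the 21 and 6 of the 19, out of 146 tested, which is 7.53% and 4.11% of them. Guide arms of the same lists held 2 and 6 of 188 (1.06% and 3.19%), other named entries 6 and 4 of 147, and predicted candidates 2 and 3 of 113. Of the 6 guides below CTR, 3 were in the epithelial list and 1 in the hepatic and intestinal list. Without CTR replicate 1, with 6 libraries against 2, the counts were 106 (17.8%) and 68 (11.4%).

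Among the 21 sequences above CTR without overlap, 6 started with T (28.6%), and among the 17 below, 6 (35.3%), against 43.7% of the 565 distinct sequences tested. Their median GC content was 47.6% and 47.8%, against 45.5% in all tested, and their median length was 22 nt, as in all tested. Within these sets 2 pairs share a seed: mir-19b-1-p5 and miR-19c-4-5p both lay above CTR, whereas miR-181a-5-3p lay above (0.54) and mir-181c-2-p3 below (-1.02).

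Families were described by arm, over 22 lists. The passengers of miR-21 had a median of 0.69, with 3 of 3 entries higher. The median of the miR-103 and miR-107 passengers, 1.02, rests on 2 entries at -0.15 and 2.18, and was 0.12 after quantile normalization and 0.59 without CTR replicate 1. The main miR-21 passenger, mir-21-1-p3, measured 12137, 3350 and 4859 normalized reads in CTR and 7066 to 20202 in stimulated libraries (1.13, adjusted p = 0.238). CTR replicate 1 was nearer to the stimulated libraries than to the other CTR libraries. The median of the miR-21 passenger list was 1.66 without that library.

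Guide lists other than that of miR-34 had small medians, to be read against 340 higher and 254 lower entries in all. The miR-34 guides had a median of 1.27 over 2 tested entries, at 0.70 and 1.83, and neither model called them. The higher value is that of a miR-34c form. Summed 5p reads of miR-34c were 24.2 to 94.2 in CTR, 641 in AA replicate 3 and 1246 in IGF1 replicate 3. In the other stimulated libraries they were 57.4 to 89.6, within the CTR range. Guides of miR-10 were lower in 6 of 6 entries, which are 5 sequences (median -0.25), and 3 of the 6 were lower at an unadjusted p under 0.05, against 6.4% of all entries. Those of miR-221 and miR-222, which hold back differentiation of mammalian myoblasts, were lower in 4 of 4 (-0.18, or -0.31 without CTR replicate 1). Guides of miR-21 and of miR-103 with miR-107 were lower in 3 of 3 each (-0.14 and -0.11), and the first median was -0.08 without CTR replicate 1. Guides of miR-128 were lower in 4 of 4 (-0.06), a median that turned to 0.08 without that library. Those of miR-99, miR-100 and miR-125 were lower in 8 of 10 (-0.27), 3 of them at an unadjusted p under 0.05. let-7 guides, which mark differentiated cells, were lower in 13 of 16 entries (-0.15, 0 at an unadjusted p under 0.05).

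On the other side, guides of miR-146 were higher in 4 of 4 (0.30). Quantile normalization, which gives every library the same distribution, moved the median of these guides to 0.09. Those of the miR-17 family were higher in 8 of 9, with a median of 0.19, or 0.54 without CTR replicate 1. The miR-15 and miR-16 guides were higher in 6 of 9 (0.15), and their median turned to -0.01 after quantile normalization and to -0.08 without CTR replicate 1. None of these entries was called.

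**Figure D4:**
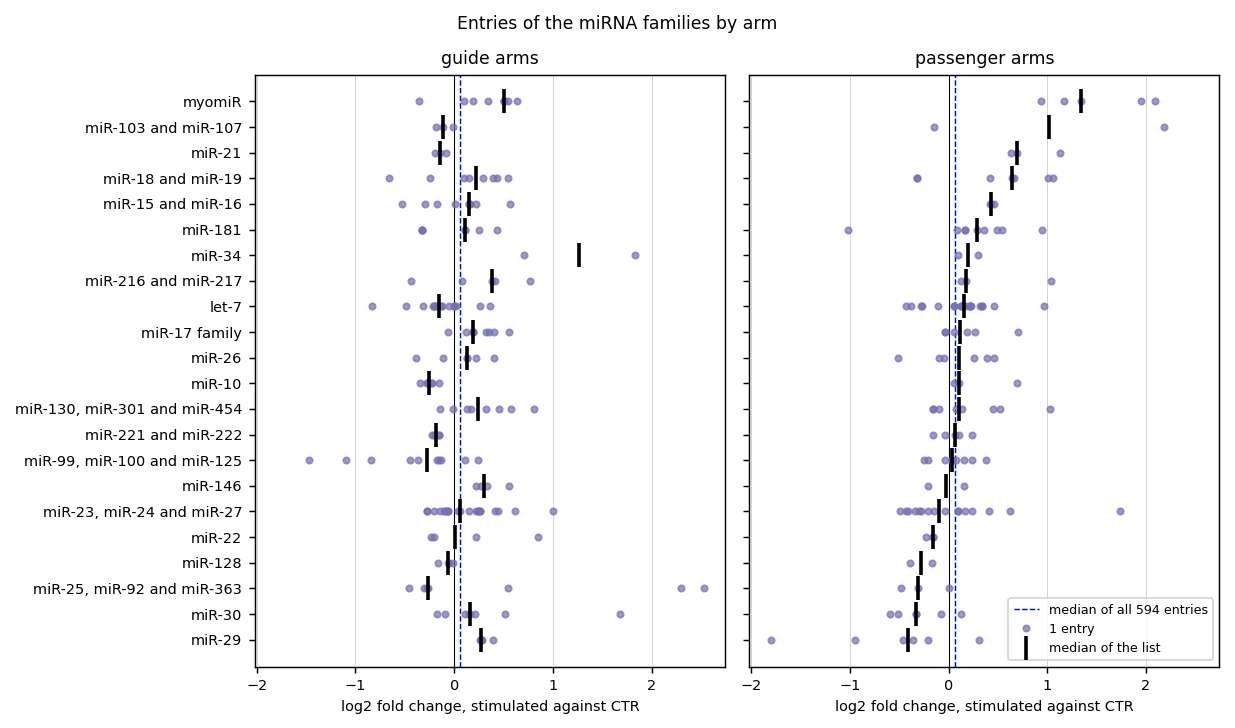
Log2 fold change of the stimulated group against CTR (x axis) of every tested entry of 22 miRNA families, guide arms on the left and passenger arms on the right, with the median of each list and of all 594 entries (0.06). The myomiR passengers lie at 0.93 to 2.09 and their guides at -0.36 to 0.63, while for miR-29 the passengers have a median of -0.41 and the guides 0.27. The guide at 0.63 is a miR-1 form with 3.62 to 12.5 normalized reads.

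For each library 5 summaries were compared by an exact two-sided permutation test of 3 against 6 (84 assignments, smallest possible p = 0.0238), and none passed after adjustment over the 5. Predicted candidates took 0.156%, 0.162% and 0.158% of reads in CTR and 0.133% to 0.146% in stimulated libraries, without overlap (difference -0.0199 percentage points, exact p = 0.0238, adjusted p = 0.119). Entries above 0 numbered 671, 684 and 706 in CTR and 703 to 750 in stimulated libraries (exact p = 0.0476, adjusted p = 0.119). Depth differed as well, with 5 of the 6 stimulated libraries deeper than every CTR library. The other, IGF1 replicate 3, at 7241680 reads, was shallower than CTR replicates 2 and 3. It held 0.141% of predicted candidates and 711 entries above 0. The part of depth in both measures was not tested.

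The share of myomiR guide arms was 7.36% ± 1.18 (SD, n = 3) in CTR and 8.27% ± 1.47 (n = 6) after stimulation (exact permutation p = 0.381, adjusted p = 0.565). That of passenger arms of the lists was 2.26% ± 0.184 and 2.42% ± 0.24 (exact p = 0.452, adjusted p = 0.565). The Shannon entropy of the reads was 4.31 ± 0.0504 bits and 4.31 ± 0.0599 bits (exact p = 1, adjusted p = 1). By stimulus, the share of passenger arms was 2.59% ± 0.191 (SD, n = 3) in AA and 2.24% ± 0.136 (n = 3) in IGF1.

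**Figure D5:**
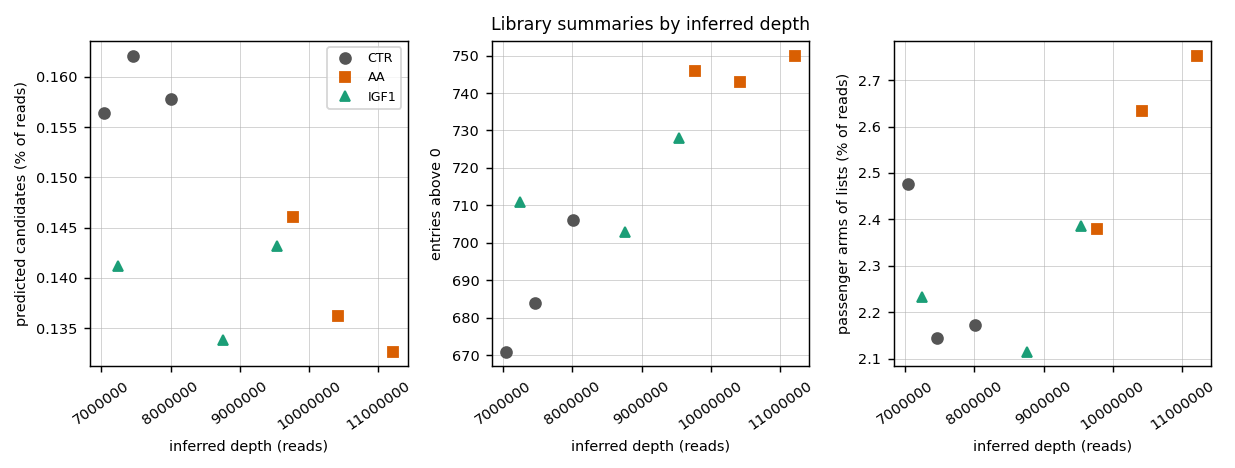
Share of reads of predicted candidates, number of entries above 0 and share of reads of passenger arms (y axes) against inferred depth in reads, 1 point per library. The 3 CTR libraries hold 0.156% to 0.162% of predicted candidates and every stimulated library 0.146% or less, and 5 of the 6 stimulated libraries are deeper than every CTR library.

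Whether both stimuli gave the same level was tested without the CTR libraries in the difference. AA and IGF1 differed at 5 of 594 entries (0.842%), all higher in AA: miR-181b-3p (1.76, adjusted p = 0.00252), mir-128-2-p5 (1.93, 0.0212), miR-133a-2-5p (1.12, 0.031), miR-145-3p (0.94, 0.031) and miR-1 (0.90, 0.0168). With a library left out the count was 1 to 13, and the 13 came from dropping CTR replicate 1. Dropping AA replicates 1, 2 and 3 in turn gave 7, 1 and 1, and dropping the IGF1 libraries in the same order gave 1, 2 and 2. At miR-181b-3p, a passenger, CTR measured 229, 151 and 154 normalized reads, AA 570, 662 and 633 and IGF1 177, 177 and 195. The IGF1 libraries lay within the CTR range, and the pooled fold change of 0.94 described neither stimulus. Of the 20 entries named for groups that did not overlap, miR-133a-2-5p alone differed between AA and IGF1 at this threshold. That does not show that the other 19 were alike. The pooled model that ranked them counts a difference between AA and IGF1 as spread, so entries with such a difference were less likely to be picked.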

How the data were processed

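Per the study's methods, the authors trimmed single-end small RNA reads with scripts of their own, kept sequences of 18 to 26 nt and assigned them by BLAST to miRBase precursors. The deposited values are normalized reads, a signal per entry and library. Neither its formula nor a genome build is given in the sources used here, so no count model was fitted. The deposited group means and p-values over the groups were not used. No column was left out. Where the miRNA genes lie in the genome was not analysed here.

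Entries that reached 10 normalized reads in 3 or more of the 9 libraries were compared on log2(normalized reads + 1) with limma 3.58.1 in R 4.3.3, with an intensity trend, Benjamini-Hochberg adjustment and a threshold of 0.05. A fold change on this scale understates the change of low entries. A model with 3 groups was the alternative, and gave AA against IGF1. Exact permutation tests used scipy 1.17.1. The scripts were tested on simulated data. Arms missing from a name or contradicting its sequence (8 entries) were set by similarity of the first 10 bases to the guide, at a minimum of 0.7. Named were up to 10 entries per direction past the threshold, filled up by smallest p among entries whose groups did not overlap (1 per sequence, no predicted candidates), the 5 most abundant sequences, myomiR guides and the 6 arm ratios with the smallest p. Members and lists were chosen with earlier results of these data known. Pseudocounts, filters, rescalings, weights and left-out libraries were varied.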

Additional observations from a re-analysis of the deposited data

Results flagged for a closer look

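Of the 36 named entries, 5 library summaries and 6 arm ratios, none had a stimulated library past Dixon's 95% critical value for 6 samples, and chance alone flags about 1 in 20 groups. The 6 samples hold 2 treatments, and a gap between AA and IGF1 widens the range and can hide a library that stands apart. The check on stimulated libraries also says nothing of CTR replicate 1. AA and IGF1 differed, by the test of the difference itself in the model with 3 groups, at 3 of the named entries, so that the pooled value there averages unequal levels. These were miR-181b-3p (dre-miR-181b-3p, AA above IGF1 by 1.76 on the log2 scale, higher in 3 of 3 AA libraries), miR-133a-2-5p (1.12) and miR-1 (0.90). That does not show that both stimuli were alike at the other named entries. In the same test mir-29d-p5 (-2.07) and miR-206-5p (1.09) fell just short, with an adjusted p of 0.0617 each. The arm ratio of miR-128, known from brain and muscle of mammals, differed between the stimuli too, by 1.28 on the log2 scale of 5p to 3p (adjusted p = 0.0113), with the passenger at 1.43% to 1.65% of the guide in AA and 0.578% to 0.773% in IGF1.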

How the results depend on the processing

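For stimulated against CTR, with 0 calls higher and 0 lower, the counts higher and lower were 3 and 0 without a filter, 2 and 1 with a mean of at least 50 normalized reads, 2 and 0 after rescaling to the same total, 36 and 22 with weights per library, and 9 and 4 in the model with 3 groups. Leaving out each library gave 0 to 8 higher and 0 to 4 lower, the most without CTR replicate 1 (8 and 1) and IGF1 replicate 3 (4 and 4). AA against IGF1, with 5 calls, gave 9 with a mean of at least 50, 1 with no intensity trend, 20 with weights per library, and 1 to 13 with a library left out (13 without CTR replicate 1). The arm ratio gave 5 calls in the model with 3 groups and 1 to 26 with a library left out. Entries without overlap were 106 higher and 68 lower without CTR replicate 1, an alternative chosen after seeing the data. The cause of these differences was not tested. The difference in Shannon entropy, -0.00158 bits, ranged from -0.0241 to 0.0256 and was positive without CTR replicate 1 (0.0256), AA replicate 3 (0.0174) or IGF1 replicate 2 (0.00654). The difference in share of myomiR guides ranged from 0.291 to 1.46 percentage points. Signs were the same under every alternative at 32 of 36 named entries. Of the others, miR-206 and its 23 nt form turned, to -0.0568 and -0.0454 at the lowest. miR-21 and miR-146 came to 1.2e-15 and -5.2e-17 at the extreme, which is rounding and no change of direction.

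The libraries carry replicate numbers shared across groups. Deviations from the group means of libraries with the same number correlated at r = 0.27, -0.11 and 0.07 (CTR with AA), 0.40, 0.32 and 0.30 (CTR with IGF1) and 0.32, 0.05 and 0.35 (AA with IGF1). Pairs with different numbers were mostly below 0. They ran from -0.38 (AA replicate 1 with IGF1 replicate 3) to 0.26 (AA replicate 3 with CTR replicate 2). Deviations within a group sum to 0, so same-number pairs above 0 push the other pairs below 0. The other pairs are therefore no separate observation. The labels do not say what a number stands for, and not every same-number pair passed 0.1, so the main fit took no pairing. Any sharing between libraries of 1 number is therefore left out of its p-values. With the number as a replicate block the calls were 3 higher and 0 lower for stimulated against CTR, 10 for AA against IGF1 and 13 arm ratios, and the model with 3 groups called 31 entries in place of 13.

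The median fold change over all entries, 0.06, turned to -0.02 after quantile normalization and was 0.01 without CTR replicate 1. The first of these gives every library the same distribution, so it cannot show a direction. Depth limits the low entries: 3 reads are 2.32 to 3.62 normalized reads.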
